A study of Mus musculus with 16 samples.

Results

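The 10 immediate early genes Fos, Fosb, Jun, Junb, Atf3, Egr1, Nr4a1, Ier2, Ier3 and Cyr61 were followed in gastrocnemius muscle of 16 mice through every probe carrying one of their names, which gave 12 probes among the 41174 probes of the array besides controls. Junb and Ier2 had 2 probes each, and the brightest stood for the gene. All 12 probes were among the 19398 probes, with 13575 different gene names, bright enough to be tested, and all were well above background in both dyes on all 16 arrays.

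Immediate early genes are switched on within minutes of a stimulus such as a growth factor, stretch or cell stress, without new protein synthesis, and their short-lived transcripts fade soon after. Fos and Fosb encode partners of the Jun proteins in the AP-1 transcription factor, Jun and Junb encode Jun proteins, Atf3 a related stress-induced factor, Egr1 a zinc finger factor and Nr4a1 an orphan nuclear receptor. Ier2 and Ier3 encode small early-response proteins, and Cyr61 (now Ccn1) a secreted matrix protein. In skeletal muscle these genes are known to respond to contraction, stretch and handling of the tissue.

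The muscle was gastrocnemius, a calf muscle, of male C57BL/6N mice that were 3 months old at the start. Both groups of 8 were fed a high-fat diet made with corn oil (cHF, with lipid at about 35% of its weight) for 8 weeks, and in both it carried 10 mg of rosiglitazone, a drug that activates PPARγ, per kg. In the cHF+F+ROSI mice an n-3 LC-PUFA concentrate, holding 46% DHA and 14% EPA, also took the place of 15% of the lipids, and in cHF+ROSI it did not. Before death, every mouse was fasted for 10 hours by day and re-fed Chow overnight, so the values describe re-fed muscle on the morning after, and no group without rosiglitazone was analysed here.

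RNA of each mouse was labelled with Cy5 and hybridised against 1 common Cy3 pool, and a value here is log2(Cy5/Cy3), so a difference of 1 between mice is a 2-fold difference in the measured ratio. The arrays lay on 4 slides with 2 mice of each group on each slide, and the diets had fixed positions on the slides, so position and diet cannot be told apart. The median Cy5 signal of an array was 2.98 to 3.64 times background, apart from cHF+ROSI replicate 1 at 2.33, and the Cy3 signal was 1.78 to 2.02 times background. The array at 2.98 was that of cHF+F+ROSI replicate 2. Array quality weights, used only in an alternative fit, were lowest for cHF+ROSI replicate 1 (0.30) and next lowest for cHF+F+ROSI replicate 2 (0.54). cHF+ROSI replicate 1 held the highest value of its group for 25.9% of all probes. The 6 marker genes of muscle fibres were all measured. In whole muscle, fewer cells of a type and less RNA per cell cannot be told apart.

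The promoters of 8 of the 10 genes were found in RefSeq (GRCm38.p6), and 4 are printed because their genes span the range of behaviour described here: Fos and Atf3 had the tallest single-mouse peaks, Junb moved with most members, and Ier3 did not share the peaks. Each run holds the 250 bases before the transcription start, 5′ to 3′ on the gene's strand, and capitals mark TGACG or its reverse complement CGTCA, the core letters of the cAMP response element. They are Fos at chr12:85473640-85473889 (plus strand), Junb at chr8:84978749-84978998 (minus), Atf3 at chr1:191183334-191183583 (minus) and Ier3 at chr17:35821463-35821712 (plus).
Fos: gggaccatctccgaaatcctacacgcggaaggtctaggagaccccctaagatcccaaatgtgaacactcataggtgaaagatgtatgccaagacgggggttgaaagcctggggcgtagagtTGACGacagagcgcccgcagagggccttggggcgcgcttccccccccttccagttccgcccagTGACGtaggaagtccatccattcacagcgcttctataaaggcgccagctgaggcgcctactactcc
Junb: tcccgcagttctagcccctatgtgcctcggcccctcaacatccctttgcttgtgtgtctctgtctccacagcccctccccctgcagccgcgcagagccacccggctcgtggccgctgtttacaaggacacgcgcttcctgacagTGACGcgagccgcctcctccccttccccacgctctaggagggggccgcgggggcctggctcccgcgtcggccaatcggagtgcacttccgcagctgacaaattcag
Atf3: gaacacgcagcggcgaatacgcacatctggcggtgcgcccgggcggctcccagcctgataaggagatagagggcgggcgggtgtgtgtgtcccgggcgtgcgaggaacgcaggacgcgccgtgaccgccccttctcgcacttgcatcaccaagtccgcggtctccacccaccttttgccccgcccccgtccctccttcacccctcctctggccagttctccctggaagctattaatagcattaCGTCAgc
Ier3: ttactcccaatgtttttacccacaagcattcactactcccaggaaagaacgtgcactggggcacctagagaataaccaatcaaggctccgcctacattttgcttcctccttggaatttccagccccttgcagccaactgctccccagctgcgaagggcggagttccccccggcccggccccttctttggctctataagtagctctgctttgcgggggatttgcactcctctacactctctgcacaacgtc
In Fos the marked letters began 129 and 66 bases before the start, in Junb 106 bases and in Atf3 7 bases before it. TGACG on either strand was found in 6 of the 8 promoters, those of Fos, Fosb, Junb, Atf3, Nr4a1 and Cyr61, and Nr4a1 held it 4 times. Of 32851 promoter windows of the same length in the table, 17.8% held it. Jun and Ier3 held none in this window. TGAGTCA, the AP-1 site itself, was in none of the 8 windows and in 4.46% of all windows. The letters TATAAA on either strand were in 2 of the 8, Fos and Cyr61, and in 12.4% of all windows.

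With all 16 mice, none of the immediate early genes passed the test of the diets. In limma with Benjamini-Hochberg adjustment over 19398 probes, 0 of the 12 probes had an adjusted p below 0.05, and 3 of all probes did, which is 0.0155%. At an unadjusted p of up to 0.05, 1 probe of the 12, that of Jun, was lower with the added n-3 LC-PUFA, beside 3.95% of all probes lower and 7.44% in either direction. The cHF+F+ROSI means of 8 genes lay below the cHF+ROSI means and those of Fosb and Egr1 above them, with a median log2 fold change of -0.18 over the 10 genes against -0.0012 over all probes. The ranges of the groups overlapped for all 12 probes, and they did not overlap for 0.0773% of all probes.

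**Figure D1:**
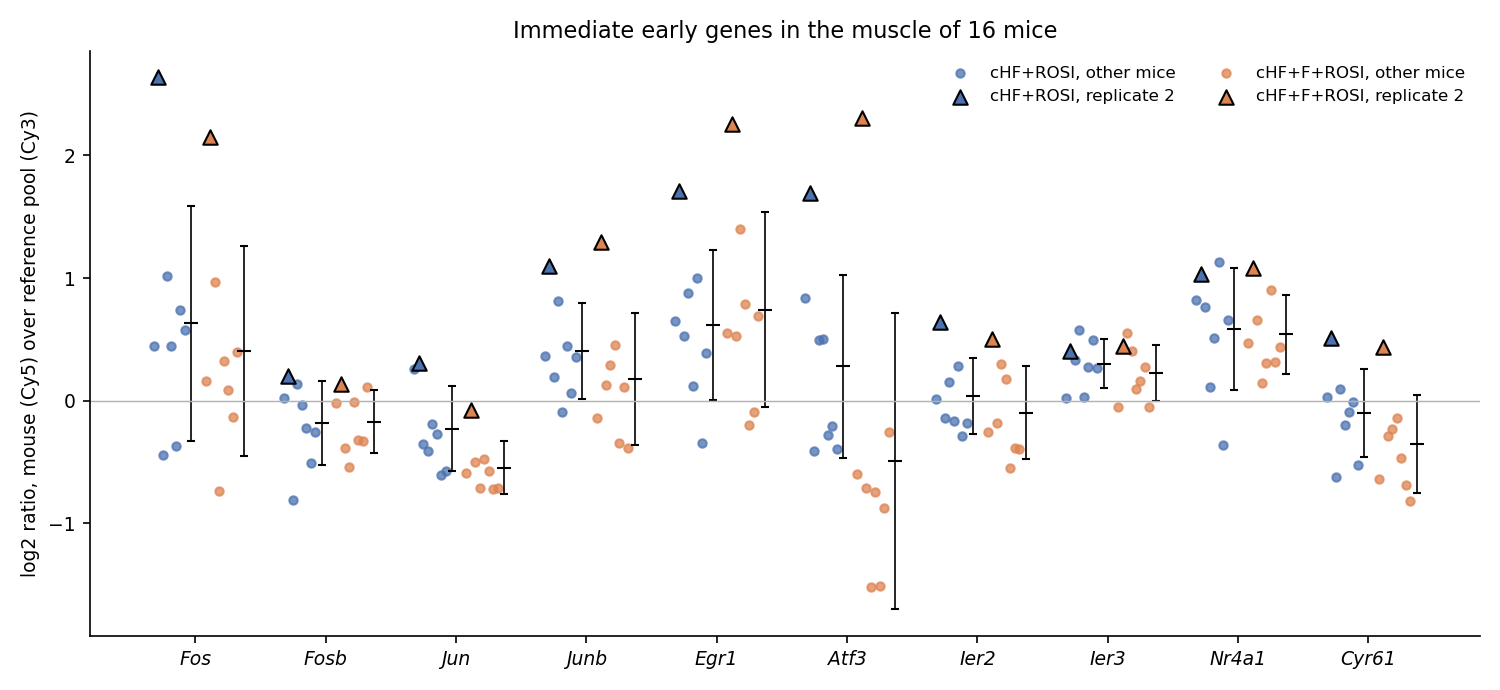
Log2 ratio of the mouse over the reference pool (vertical axis) for each of the 10 genes in 8 cHF+ROSI (blue) and 8 cHF+F+ROSI (orange) mice. Each point is 1 mouse, triangles mark replicate 2 of each group, and bars are the mean ± SD of the 8 mice. The triangles top their own group for 8 and 9 of the 10 genes, with Fos at 2.64 and 2.15.

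The spread between mice of 1 group was wide for these genes. The SD of 9 of the 10 genes in cHF+ROSI, and of 7 among cHF+F+ROSI mice, lay above the 90th percentile of all probes, and the median SD of all probes was 0.14 and 0.12. For most of the genes the highest value of a group came from 1 mouse, replicate 2 in each group, and both of these lay on slide 1.

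Fos, the AP-1 partner that gave the family its name, was read by a probe at chr12:86366053-86366112 (mm8, as are the probe positions that follow). It ran from -0.44 through a median of 0.51 to 2.64 in cHF+ROSI, and from -0.74 through 0.24 to 2.15 among cHF+F+ROSI mice. Both maxima were replicate 2, with the next mice at 1.01 and 0.97. They stood 4.36-fold and 3.74-fold above the median of their groups, which made Fos the second furthest above its group median of 19310 probes in the cHF+ROSI mouse. The mean difference between the diets was -0.23 (SE 0.41, adjusted p = 0.941 in limma), and -0.51 with scale normalization between arrays. On the arrays Fos was printed in 10 spots, which gave a median SD between spots of 0.06 and at most 0.35, in cHF+F+ROSI replicate 2. The Cy5 signal of Fos was 13046.5 in cHF+ROSI replicate 2 and 8945 in cHF+F+ROSI replicate 2, against 999 to 4564 in the 14 others. The Cy3 signal, from the same pool on every array, was 406.5 and 377 there, within the 352 to 443 of the 14 others.

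Fosb, whose protein is a close relative of Fos, had a mean Cy5 signal 6.73 times background (probe at chr7:18461650-18461709). It ran from -0.81 through -0.13 to 0.20 in cHF+ROSI and from -0.54 through -0.17 to 0.14 among cHF+F+ROSI mice. Replicate 2 was again the highest in both groups, but close to the next mice at 0.14 and 0.11. The log2 fold change was 0.01 (SE 0.14).

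Jun, the main Jun protein gene (probe at chr4:94541191-94541250), was the member with an unadjusted p below 0.05. It ran from -0.61 through -0.31 to 0.31 in cHF+ROSI and from -0.72 through -0.58 to -0.07 among cHF+F+ROSI mice. The log2 fold change was -0.31 (SE 0.13), with an unadjusted p of 0.0288 and an adjusted p of 0.617 in limma, and an exact two-sided permutation test over all 12870 splits gave p = 0.0466. In 7 of the 8 cHF+F+ROSI mice Jun lay below the mean of the cHF+ROSI mice. The exception was replicate 2, which stood apart from a next value of -0.47. Within slides the log2 difference was -0.57, -0.21, -0.42 and -0.06 on slides 1 to 4, and with slide as a block the unadjusted p was 0.00116 (adjusted p = 0.322 in limma).

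Junb, the other Jun protein gene (probes at chr8:87867087-87867146 and chr8:87867049-87867108), ran from -0.09 through 0.36 to 1.098 in cHF+ROSI and from -0.38 through 0.12 to 1.29 among cHF+F+ROSI mice. The maxima were replicate 2 of each group, 1.67-fold and 2.25-fold above the group median. The log2 fold change was -0.23 (SE 0.21), and -0.16 for the second probe, whose values followed the first across the mice with group means removed (r = 0.98 and Spearman's rho = 0.96, both with permutation p = 1e-05, the smallest that 100000 resamples can give, and an adjusted p of 2e-05 over the genes with 2 probes; r = 0.96 without the 2 mice farthest from the median).

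Atf3, the stress-induced factor (probe at chr1:192871283-192871342), had the largest difference in means and the tallest peak over its group. It ran from -0.41 through 0.14 to 1.70 in cHF+ROSI, and among cHF+F+ROSI mice 7 values lay between -1.52 and -0.26 while replicate 2 stood at 2.30, the highest of all 16 and 8.16-fold above the group median. The log2 fold change was -0.77 (SE 0.45, adjusted p = 0.727 in limma; exact permutation p = 0.153), and it was -1.38 with scale normalization. Within slides it was -0.47, -1.17, -1.30 and -0.13, lower in cHF+F+ROSI on each of the 4 slides. With slide as a block the unadjusted p was 0.0449 (adjusted p = 0.699 in limma).

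Egr1, which binds GC-rich sites in many early-response promoters, ran from -0.35 through 0.59 to 1.71 in cHF+ROSI and from -0.20 through 0.62 to 2.26 among cHF+F+ROSI mice. The maxima were replicate 2, and the groups shared nearly the same median. The log2 fold change was 0.12 (SE 0.32), and it was -0.23 with scale normalization between arrays. Nr4a1 (probe at chr15:101102674-101102733) ran from -0.36 through 0.71 to 1.13 and from 0.14 through 0.45 to 1.08 in the same order. Its highest cHF+ROSI mouse was replicate 6 and its highest cHF+F+ROSI mouse replicate 2, and the log2 fold change was -0.04 (SE 0.19), or -0.65 with scale normalization.

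Cyr61, a matrix protein gene often induced with stretch (probe at chr3:145584609-145584668), ran from -0.62 through -0.05 to 0.51 in cHF+ROSI and from -0.82 through -0.38 to 0.44 among cHF+F+ROSI mice, both maxima being replicate 2. In 7 of the 8 cHF+F+ROSI mice it lay below the cHF+ROSI mean, and the log2 fold change was -0.25 (SE 0.17). Ier2 (probes at chr8:87549656-87549690 and chr8:87549829-87549887) ran from -0.29 through -0.06 to 0.64 and from -0.55 through -0.22 to 0.50 in the same order, again with replicate 2 on top, with a log2 fold change of -0.14 (SE 0.16). Its second, dim probe did not follow the first (r = -0.02, permutation p = 0.935, and rho = -0.01, p = 0.986, over 16 mice; adjusted p = 0.935 and 0.986; r = 0.10 without the 2 farthest mice), and the peaks were not seen there, at -0.85 and -0.46. Ier3 (probe at chr17:35430636-35430695) did not share the peaks. It ran from 0.02 through 0.30 to 0.58 and from -0.05 through 0.22 to 0.55, with the maxima in replicate 4 of the cHF+ROSI and replicate 3 of the cHF+F+ROSI mice, and the log2 fold change was -0.07 (SE 0.10).

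**Figure D2:**
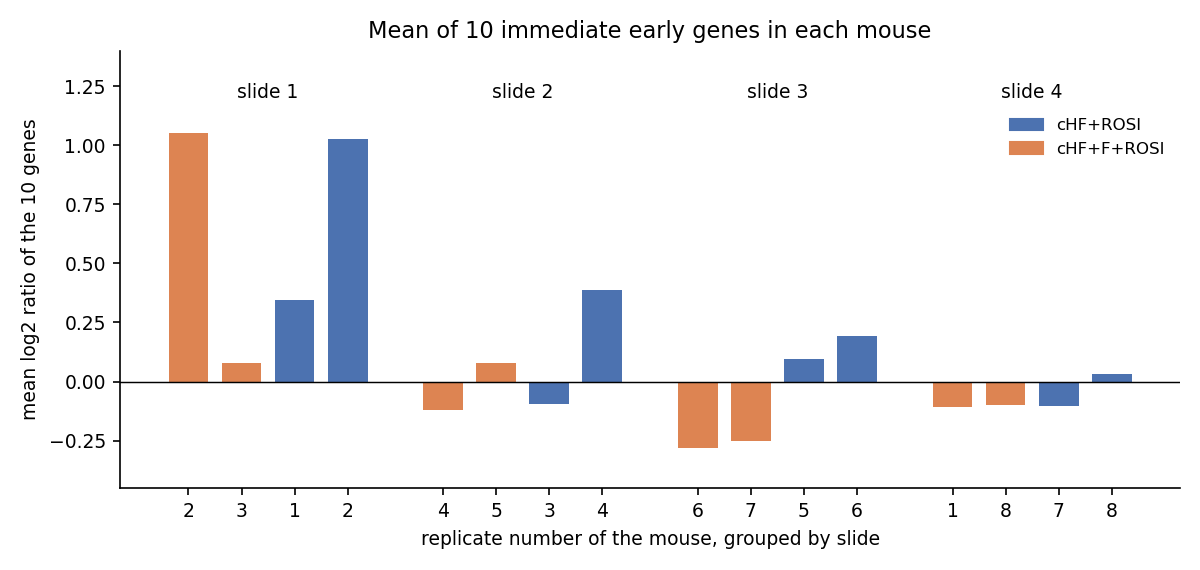
Mean log2 ratio of the 10 genes (vertical axis) in each of the 16 mice, ordered by slide and numbered by replicate, with cHF+ROSI in blue and cHF+F+ROSI in orange. The replicate 2 mice reach 1.02 and 1.05 on slide 1, and the 14 others lie between -0.28 and 0.39.

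Averaged over the 10 genes, cHF+ROSI replicate 2 stood at 1.02 and cHF+F+ROSI replicate 2 at 1.05, while the 14 others lay between -0.28 and 0.39. The cHF+ROSI mouse was the highest of its group for 8 genes and above the group median for all 10. The cHF+F+ROSI mouse was the highest for 9 and also above the median for all 10. Over all probes, those 2 mice were the highest of their group for 9.93% and 15.1%. The other 2 mice on slide 1, cHF+ROSI replicate 1 and cHF+F+ROSI replicate 3, stood at 0.35 and 0.08.

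A gap test after Dixon, which compares the step from the highest to the next mouse with the whole range of 8, was used to describe how far a peak stood apart. By it the top mouse stood apart for Fos in cHF+ROSI, where the gap of 0.527 of the range only just passed, and for Jun and Atf3 among cHF+F+ROSI mice, with gaps of 0.619 and 0.669, each time replicate 2. The second Junb probe did so in cHF+F+ROSI replicate 2 as well. Over all probes the highest mouse stood apart for 4.01% in the cHF+ROSI group, 0.161% in replicate 2, and for 5.02% in the cHF+F+ROSI group, 1.36% in replicate 2.

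Other genes stood far above their group median in the peak mice, and these are named after their values were seen. In cHF+F+ROSI replicate 2, Hspa1a, an inducible heat shock protein gene, was the furthest, by 4.57 and 4.54 in 2 probes and by 2.54 in another. Dnajb1, a chaperone partner, stood 2.89 above in 1 probe. Another Dnajb1 probe, the one named further below, stood at 1.09 against a group median of -0.45. In cHF+ROSI replicate 2, Otud1, a deubiquitinase gene, was the furthest by 2.16, and Alb1 and Fabp1, abundant in liver, stood 1.46 above. Otud1 also stood 3.38 above in the cHF+F+ROSI mouse. The slow fibre markers were low in 1 of the mice. Their mean over 9 genes was -2.14 in cHF+F+ROSI replicate 2, the lowest of its group, whose median was -0.34 and highest 0.24. In cHF+ROSI replicate 2 it was -0.59, against a group median of -0.09 and a range of -1.23 to 0.61. Whether fibre make-up had a part in the peaks was not tested. The 6 fibre markers averaged 0.33 in the cHF+F+ROSI mouse and 0.48 in the cHF+ROSI mouse, the latter the highest of its group, with group ranges of 0.07 to 0.38 and -0.0046 to 0.48. The 6 adipocyte markers averaged 0.56 and -1.02, the latter the lowest of its group, whose highest was 0.33. The macrophage markers (7 of 8 measured) averaged 0.14 and -0.37 in the same order, within -0.32 to 0.24 and -0.39 to 0.49 in their groups. Only 2 of 5 neutrophil markers passed the filter, with S100a8 and S100a9 left, and these averaged -0.49 and -0.43, within -0.95 to -0.26 and -0.94 to -0.02.

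**Figure D3:**
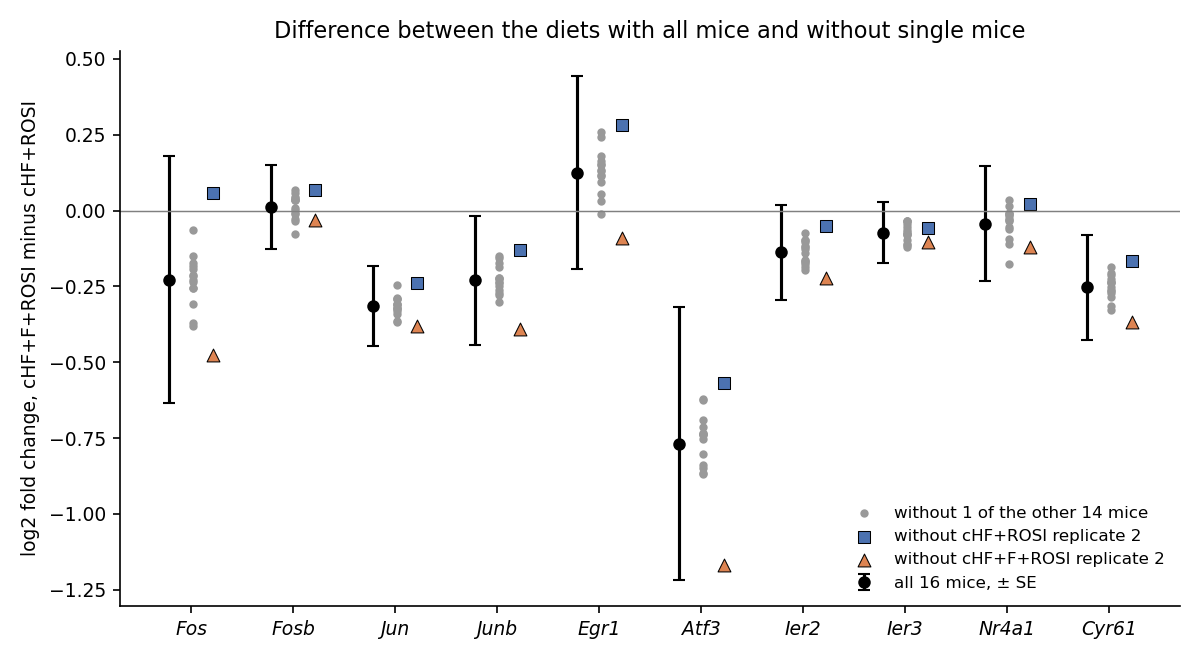
Log2 fold change of the 10 genes, cHF+F+ROSI minus cHF+ROSI (vertical axis), with all 16 mice (black, ± SE), without each of 14 mice in turn (grey), without cHF+ROSI replicate 2 (blue squares) and without cHF+F+ROSI replicate 2 (orange triangles). Atf3 moves from -0.77 to -1.17 without the cHF+F+ROSI mouse and to -0.57 without the cHF+ROSI mouse, and for 7 of the 10 genes these 2 mice set both ends of the range.

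For Fos, Jun, Junb, Egr1, Atf3, Ier2 and Cyr61 the lowest and the highest log2 fold change with 1 mouse left out came without one of those animals. For Nr4a1 and Ier3 both ends came without other mice, and for Fosb the lowest did. Each replicate 2 was the highest of its group for most genes, so leaving it out by itself lowers that group's means of them. Counts and p-values without these mice are therefore a description. Without cHF+F+ROSI replicate 2, 5 member probes of 12 were lower in cHF+F+ROSI at an unadjusted p of up to 0.05, beside 3.64% of all probes lower and 7.17% in either direction. They were the probes of Atf3 (log2 fold change -1.17, SE 0.29, unadjusted p = 0.00100), Jun (-0.38, SE 0.13, unadjusted p = 0.00745), Cyr61 (-0.37, SE 0.15, unadjusted p = 0.0251) and both of Junb (-0.39, unadjusted p = 0.0330, and -0.29, unadjusted p = 0.0444). Their adjusted p in limma ran from 0.294 for Atf3 to 0.686, so 0 of the 12 passed, beside 0.0155% of all probes. Without that mouse the log2 fold change of Egr1 was -0.09.

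Without cHF+ROSI replicate 2, 0 member probes passed in limma, either at an unadjusted p of up to 0.05, beside 7.27% of all probes (3.86% lower), or after adjustment, beside 0.0155%. Fos then had a log2 fold change of 0.06 (SE 0.34), Jun -0.24 (SE 0.12, unadjusted p = 0.0652) and Atf3 -0.57 (SE 0.44). Without both mice, a choice made after their values were seen, Atf3 had -0.97 (SE 0.23, unadjusted p = 0.000876, adjusted p = 0.289 in limma) and Jun -0.30 (SE 0.11, unadjusted p = 0.0128). These were the 2 probes of 12 past an unadjusted p of 0.05, beside 7.43% of all probes (3.81% lower), and 0 passed after adjustment in limma, beside 0.0206%. Cyr61 had -0.28 (unadjusted p = 0.0502). Jun reached an unadjusted p of up to 0.05 in 11 of the 16 fits that left out 1 mouse, and the other members with such a fit (Atf3, Junb and Cyr61) had it in 1, that without cHF+F+ROSI replicate 2. Over these 16 fits 6.08% to 10.2% of all probes reached it. Jun lost it without cHF+ROSI replicate 1 or 2, or cHF+F+ROSI replicate 4, 7 or 8.

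**Figure D4:**
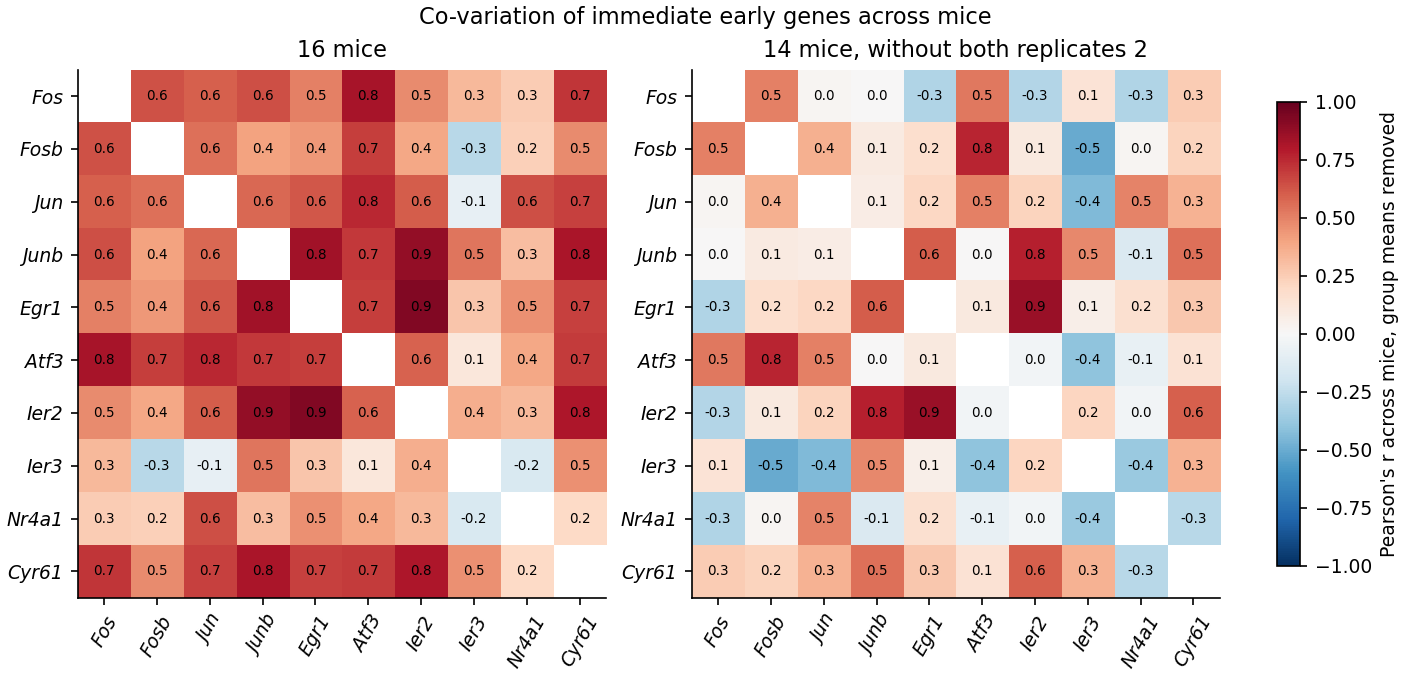
Pearson's r between each 2 of the 10 genes across mice, group means removed, on a colour scale from -1 (blue) to 1 (red), with the rounded value in each cell. Left, all 16 mice, with a median r of 0.55 over 45 pairs; right, 14 mice without both replicates 2, with a median of 0.15, where the block of Egr1, Ier2 and Junb and that of Fosb and Atf3 stay red.

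Across the mice, with group means removed, most members moved together, and r was above 0 in 42 of 45 pairs. The median r was 0.55 and the median Spearman's rho 0.40. By a permutation test within groups, adjusted over the 45 pairs, r passed in 22 pairs, and r and rho both in 7. Without the 2 mice farthest from the median of the first-named gene the median r was 0.30, and without both replicates 2 it was 0.15. The mean r over pairs was 0.49 within cHF+ROSI and 0.55 within cHF+F+ROSI. With slide removed as well as the group means, and all mice kept, it was 0.29 and 0.40. Without their replicate 2, and with slide not removed, it was 0.22 and 0.089. The shared movement was thus weaker without these 2 animals.

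The 7 pairs that passed for both r and rho kept at least 0.5 of their r without the 2 farthest mice. Egr1 and Ier2 had r = 0.93 and rho = 0.91, both with permutation p = 1e-05 and adjusted p = 0.000225, and r was 0.95 and 0.91 within the groups and 0.86 without the 2 farthest mice. Junb and Ier2 had r = 0.88 and rho = 0.91, with the same p-values, and r = 0.78 without the 2 farthest. Junb and Egr1 had r = 0.84 (permutation p = 0.00023, adjusted p = 0.00259) and rho = 0.81 (p = 0.00043, adjusted p = 0.00484), and r = 0.60 without the 2 farthest. Junb and Cyr61 had r = 0.81 (permutation p = 0.00052, adjusted p = 0.00341) and rho = 0.79 (p = 0.00068, adjusted p = 0.00612), and r = 0.55 without the 2 farthest. Ier2 and Cyr61 had r = 0.81 (permutation p = 0.00023, adjusted p = 0.00259) and rho = 0.74 (p = 0.00226, adjusted p = 0.0169), and r = 0.60 without the 2 farthest. Fosb and Atf3 had r = 0.69 (permutation p = 0.00053, adjusted p = 0.00341) and rho = 0.82 (p = 0.00013, adjusted p = 0.00195), and r = 0.69 without the 2 farthest and 0.76 without both replicates 2. Fos and Atf3, the pair with the tallest peaks, had r = 0.83 (permutation p = 0.00037, adjusted p = 0.00333) and rho = 0.69 (p = 0.00532, adjusted p = 0.0342), and r = 0.53 without the 2 farthest.

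Of the pairs outside these 7, some kept r and others did not. Jun and Atf3 had r = 0.75 (permutation p = 0.00109, adjusted p = 0.00613) and rho = 0.51 (p = 0.0486, adjusted p = 0.156), and r = 0.74 without the 2 farthest mice and 0.50 without both replicates 2. Fos and Fosb had r = 0.63 (permutation p = 0.0127, adjusted p = 0.0337) and rho = 0.60 (p = 0.0202, adjusted p = 0.0885), and r = 0.50 without the 2 farthest. Fos and Junb had r = 0.64 (permutation p = 0.0126, adjusted p = 0.0337) but rho = 0.31 (p = 0.249, adjusted p = 0.399), and r = 0.01 without the 2 farthest mice, so that relation rested on them. Fos and Egr1 did not pass, with r = 0.51 (permutation p = 0.053, adjusted p = 0.0953) and rho = 0.17 (p = 0.532, adjusted p = 0.598), and -0.30 without the 2 farthest. The 3 pairs with r below 0 all held Ier3.

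The genes most like the mean of the members' standardized values, over 16 mice with group means removed, were Btg2 (r = 0.92), Adamts1, Trib1, Axud1 (now Csrnp1), Ankrd1, Tnfaip1, Jund1 (now Jund), Thbs1, Zfp364 (now Rnf115) and Dnajb1 (r = 0.83). As they were picked for this likeness, r is a description. Btg2, an antiproliferative gene, stood at 1.04 in replicate 2 of cHF+ROSI and at 1.347 in that of cHF+F+ROSI, against medians of -0.12 and -0.51, and its r was 0.66 without both of them. Thbs1, which encodes a matrix glycoprotein, had r = 0.76 without them, and Zfp364 0.10. Ankrd1, a stretch-responsive muscle gene, had a log2 fold change of -0.85 (SE 0.38, unadjusted p = 0.0360, adjusted p = 0.629 in limma).

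The wider pathway was read from 3 lists. Of 18 other immediate early transcription factor genes 14 were tested, 0 were higher and 3 lower at an unadjusted p of up to 0.05, beside 3.95% of all probes lower, and the median log2 fold change was -0.22. The 3 were members of the Krüppel-like family, Klf10 (-0.47, SE 0.14, unadjusted p = 0.00267, adjusted p = 0.345 in limma), Klf4 (-0.58, SE 0.18, unadjusted p = 0.00404) and Klf6 (-0.24, SE 0.11, unadjusted p = 0.0401). Of the 14, 8 genes were highest in cHF+F+ROSI replicate 2 and 3 in cHF+ROSI replicate 2, beside 15.1% and 9.93% of all probes. The mean of the 14 was 0.16 in cHF+F+ROSI replicate 2, the highest of its group. In cHF+ROSI replicate 2 it was 0.02, and another mouse of that group was the highest at 0.19. Jund1, which encodes the third Jun protein, stood at 1.28 in cHF+F+ROSI replicate 2 against a group median of 0.14.

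Of 24 other rapidly induced genes 22 were tested, 0 were higher and 1 was lower at the same threshold, near the 3.95% of all probes lower, with a median of -0.15. The 1 was Gadd45g, a growth arrest and DNA damage response gene (-0.50, SE 0.18, unadjusted p = 0.0104, adjusted p = 0.518 in limma). In this list 10 genes were highest in cHF+F+ROSI replicate 2, beside 15.1% of all probes. In cHF+ROSI replicate 2 it was 2 genes, near the 9.93% of all probes, and Ier5 stood apart in both mice. Of 16 upstream factors and kinases 14 were tested, with 1 higher, 3 lower and a median of -0.0002, beside 3.95% of all probes lower and 7.44% in either direction. The ternary complex factor gene Elk3 (-0.28, SE 0.08, unadjusted p = 0.00221), the cAMP-responsive modulator gene Crem (-0.23, SE 0.08, unadjusted p = 0.00924) and the ERK1 gene Mapk3 (-0.13, SE 0.06, unadjusted p = 0.0380) were lower, and the MEK1 gene Map2k1 (0.14, SE 0.06, unadjusted p = 0.0239) higher. In none of the lists was an adjusted p below 0.05.

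Of 7 endothelial markers, 4 had a lower and 0 a higher cHF+F+ROSI mean at an unadjusted p of up to 0.05, beside 3.95% of all probes lower, and 0 an adjusted p below 0.05 in limma. The other 3 did not pass. The mean of the 7 ran from -0.25 to 0.0036 in cHF+ROSI and from -0.37 to -0.13 among cHF+F+ROSI mice, lowest in replicate 2. Fibroblast markers were lower in 1 of 5 and ran from -0.39 to 0.41 and from -0.29 to 0.38. The part of these cells in the values of Jun, Atf3 or the Klf genes was not tested. Dusp10, a MAP kinase phosphatase gene, had a log2 fold change of -0.66 (SE 0.17, adjusted p = 0.282 in limma) and stood at 0.75 in cHF+F+ROSI replicate 2 and 0.83 in cHF+ROSI replicate 2 against group medians of -0.27 and 0.46. Fbp2, the muscle fructose bisphosphatase gene, had 0.53 (SE 0.10, adjusted p = 0.0939 in limma), with 1.08 and 0.08 in the same mice against medians of 0.57 and 0.08.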

How the data were processed

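Gastrocnemius RNA of 16 mice, 8 per diet, was measured on 16 arrays of the 2-colour type, with Cy5 for the mouse and Cy3 for a common pool. Per the file headers, the authors quantified spot intensity with version 10.5.1.1 of Feature Extraction (the submitters' processing notes give 10.5.5.1) with probe positions on mm8 (NCBI36), and they deposited a table of normalized log2 values, used only as an alternative. Here median signals were background-corrected by normexp (offset 50), spots were kept where the signal averaged 2 times background or more in each dye, outlier-flagged spots were left out, ratios were normalized by loess and spots averaged per probe. Groups were compared by limma 3.58.1 (lmFit and eBayes) in R 4.3.3 over 19398 probes. The offset makes fold changes of weak probes smaller. The procedure was tried on the real signals of these arrays, with mock groups and the Cy5 signals of some probes changed artificially. Relations across mice used 100000 permutations within groups. The number of arrays limits precision. Mice were replicates by label. The paper kept 2 mice in each cage, and the labels do not give the cages. The p-values measure the spread between these samples only. The highest correlation between 2 arrays was 0.92, so no array was counted as a copy.

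The members, the gene lists and the markers were chosen with earlier results of these data known. Named genes were the members, genes of 3 pathway lists with the smallest p or the largest gap, and the 10 genes most like the members. Alternatives changed the background correction, normalization, channel, filter, flags, blocks, weights, fit, test, probe choice and mice. Sequences came from RefSeq, and current symbols were matched for 24375 probes through accessions.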

Additional observations from a re-analysis of the deposited data

Results flagged for a closer look

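Among the members, single mice stood apart from the rest of their group of 8 for 4 probes and for the mean of the 10 members in each group, each time in a replicate 2 on slide 1. In cHF+ROSI replicate 2 these were Fos at 2.64 and the mean of the members at 1.02. In cHF+F+ROSI replicate 2 they were Jun at -0.074, Atf3 at 2.30, the second Junb probe at 1.46 and the mean of the members at 1.05. Values are log2 ratios to the reference pool.

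Other genes named in the report did so too. In cHF+F+ROSI replicate 2 these were Ier5 at 2.84, Btg2 at 1.347, Trib1 at 1.34, Jund1 at 1.28, Ankrd1 at 1.2, Axud1 at 1.17, Dnajb1 at 1.09, Fbp2 at 1.08, Dusp10 at 0.75, Zfp364 at 0.67, Map2k1 at 0.36 and Adamts1 at 0.20. In cHF+ROSI replicate 2 they were Ier5 at 2.09 and Tnfaip1 at 0.19, and in cHF+ROSI replicate 1 Klf6 at 0.30. Btg2, Trib1, Jund1, Ankrd1, Axud1, Dnajb1, Zfp364, Adamts1 and Tnfaip1 were chosen for moving with the members, so their peaks are no independent observation. Nominally, chance alone sets a mouse apart in this way in about 1 in 20 groups. Over all probes of these arrays, the highest mouse stood apart for 4.01% and the lowest for 3.87% in cHF+ROSI. In cHF+F+ROSI it was 5.02% and 5.06%. Genes that move together are not separate cases. No cause was tested.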

How the results depend on the processing

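In all alternatives run, 0 member probes had an adjusted p below 0.05, and the log2 fold changes of Jun, Junb and Atf3 stayed below 0. Those of Ier2, Ier3 and Cyr61 did so too, apart from single slides (Ier2 0.23 on slide 2, Ier3 0.28 and 0.06 on slides 1 and 3, Cyr61 0.08 on slide 2). With all mice Jun lay between -0.44 and -0.27, and Atf3 between -0.77 and -1.38, the latter with scale normalization, which gave -0.65 for Nr4a1 and -0.51 for Fos. Fosb reversed to -0.0039 without background correction, -0.0148 with processed signals, -0.0296 with Cy5 alone, -0.0497 in the authors' table, -0.0364 with array weights and -0.0209 in a robust fit. Egr1 reversed to -0.23 with scale normalization and -0.18 with array weights, and Nr4a1 to 0.0240 with Cy5 alone and 0.0458 in the authors' table. Single slides are left out of these lists. The signs of Fos, Fosb, Egr1 and Nr4a1 also differed from slide to slide. The number of member probes with an unadjusted p of up to 0.05 was 1, and it was 0 with scale normalization, 2 with slide as a block, 2 with array weights, 2 in a robust fit and 2 without the 2 mice with the highest Fos. The share of all probes at that unadjusted p was 7.44% in the main fit and 7.43% without these 2 mice. It was not taken for the other settings with all mice, so their member counts have no background to be read against. All probes with an adjusted p below 0.05 numbered 3, and 14 without background correction, 19 with processed signals, 1 with median centring, 0 with scale normalization, 8 with Cy5 alone, 10 in the authors' table, 13 with array weights and 59 in a robust fit. The cause was not tested. The methods' t-test gave 1 member probe at an unadjusted p of up to 0.05, 0 after Benjamini-Hochberg adjustment, and 2 of all probes after it. The replicate block's numbers do not pair the mice by label or slide (correlations of same-numbered mice ran from -0.34 to 0.73). With that block 3 member probes passed the unadjusted threshold of 0.05. After adjustment 0 member probes passed, and likewise 0 of all probes. Mean pairwise r was then 0.23 in both groups, against 0.49 (cHF+ROSI) and 0.55 (cHF+F+ROSI) without the block. With 1 mouse left out, log2 fold changes ran from -0.48 to 0.058 for Fos, -0.077 to 0.068 for Fosb, -0.092 to 0.28 for Egr1 and -0.18 to 0.036 for Nr4a1. Member probes with an unadjusted p of up to 0.05 then numbered 0 to 5, beside 6.08% to 10.2% of all probes. All probes with an adjusted p below 0.05 numbered 3 to 5. The mean pairwise r ran from 0.22 to 0.53 in cHF+ROSI and 0.089 to 0.65 in cHF+F+ROSI. Without both mice with the highest Fos the latter was 0.089. The mean pairwise r within single slides was not run, since a slide held 2 mice of a group, nor was the authors' table with mice left out, since its cHF+F+ROSI columns could be matched only to the group. Fosb and the second Ier2 probe were dim (6.73 and 3.71 times background in Cy5), and their values are limited by that.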
